A study of Mus musculus with 2 samples.

Results

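The miR-34 and miR-449 genes form 1 family of microRNAs (miRNAs), the short RNAs that pair with messenger RNAs and repress them. They were followed here in 2 males, in RNA of the left cerebral cortex taken at an age of 25 days. The members were taken by gene name from the GENCODE M21 annotation, and 6 genes were found among the 2202 miRNA genes of the files: Mir34a, Mir34b, Mir34c, Mir449a, Mir449b and Mir449c. Both were of strain B6CASTF1/J, a first-generation cross of C57BL/6J with CAST/EiJ, and the labels name no treatment and no induced mutation. They formed 1 group with 1 library per mouse, so the design gives a description of levels and a comparison of replicate 2 with replicate 1. Mouse and library cannot be told apart.

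The guide strand of these miRNAs lies on the 5p arm of the hairpin, and pairing to targets starts at its seed, bases 2 to 8 from the 5′ end. Transcription of the Mir34a gene and of the Mir34b and Mir34c gene pair is raised by p53, and their targets include regulators of the cell cycle and of cell survival. In brain, miR-34a is known from neurons and their differentiation. Members of the miR-449 group, together with miR-34b and miR-34c, are known from multiciliated epithelia, where they act in the formation of motile cilia. In the brain such cells line the ventricles (ependyma) and form the choroid plexus.

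The mature sequences show why the genes are counted as 1 family. By symbol, 5 of the 6 genes were matched to the RefSeq miRNA table (GRCm38.p6, the build of mm10), with 9 mature sequences, and their hairpins had the same coordinates as the GENCODE genes. Mir449b and the 5p arm of Mir34c had no match. The 4 matched 5p arms are printed 5′ to 3′ with the seed in capitals.
miR-34a-5p (chr4:150068473-150068494, plus strand): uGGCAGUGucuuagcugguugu
miR-34b-5p (chr9:51103610-51103632, minus strand): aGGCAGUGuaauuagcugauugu
miR-449a-5p (chr13:113037549-113037570, plus strand): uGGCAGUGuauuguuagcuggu
miR-449c-5p (chr13:113036008-113036028, plus strand): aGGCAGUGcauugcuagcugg

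All 4 carried the seed GGCAGUG, and no other of the 1738 mature sequences of the table had it at bases 2 to 8. The letters occurred anywhere in 8 of the 1738 sequences (0.46%). A second run of letters, UAGCUG, stood in the later part of each of the 4 arms and in 19 of the 1738 sequences (1.09%). It began at base 12 of miR-34a-5p, base 13 of miR-34b-5p and base 15 of miR-449a-5p and miR-449c-5p. The 5p arms were 82.6% identical between miR-34a and miR-34b and 81.8% between miR-449a and miR-449c. Across the groups, identity ranged from 68.2% (miR-34a and miR-449c) to 73.9% (miR-34a and miR-449a).

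The opposite arms were less alike, and they are shown because only the neighbours Mir34b and Mir34c shared a seed there, again in capitals.
miR-34b-3p (chr9:51103574-51103595, minus strand): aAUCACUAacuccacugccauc
miR-34c-3p (chr9:51103044-51103065, minus strand): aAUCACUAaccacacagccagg
miR-34a-3p (chr4:150068517-150068537, plus strand): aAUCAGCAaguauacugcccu

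The seed AUCACUA belonged to these 2 sequences alone in the table, and miR-34b-3p and miR-34c-3p were 77.3% identical. The files count reads per gene and not per arm, so the share of 5p and 3p reads was not analysed here. The longest exact run that a matched hairpin shared with any other GENCODE M21 transcript, on either strand, was 16 or 17 bases, shorter than the mature sequences of 21 to 23 bases. This bears on the counts, because reads with several matches were not assigned to genes. Only transcripts were searched, not the whole genome.

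The genes lie at 3 places of the mm10 genome. Mir34a (ENSMUSG00000065493.1) is on the plus strand of chromosome 4, from 150068454 to 150068555. Its last 17 bases overlap an exon of Gm37795, a gene model of unsettled type that is annotated on the same strand. Mir34b (ENSMUSG00000065492.1, 51103562 to 51103645) and Mir34c (ENSMUSG00000065587.1, 51103034 to 51103110) are on the minus strand of chromosome 9, with 451 bases between them. Both lie within an intron of Btg4, a gene for a factor in mRNA decay, which runs on the other strand. Mir449c (ENSMUSG00000076146.1, 113035983 to 113036091), Mir449b (ENSMUSG00000078027.1, 113037419 to 113037498) and Mir449a (ENSMUSG00000065575.1, 113037534 to 113037624) are on the plus strand of chromosome 13. They lie within introns of Cdc20b, a gene known from multiciliated cells, on its own strand. Between Mir449c and Mir449b there are 1327 bases, and between Mir449b and Mir449a there are 35.

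Levels are given as counts per 1000000 own-strand miRNA counts (CPM), of which replicate 1 held 2388379 and replicate 2 held 4447390. A mean ± SD is over n = 2 libraries. A gene is called measured where both libraries gave it 10 or more counts, which 392 genes reached. Of the 6 members, 4 were measured, and Mir449b and Mir449c had no count. Reads carry no molecular identifiers here and so need not be separate molecules, and intervals and limits cover counting error only. As a check of the tissue, all 10 listed neuron markers had a count in either library, though some had very few. Mir124a-1 of that list had 9 and 9 counts in replicates 1 and 2. Mir124a-2 had 0 and 1 counts, Mir124a-3 had 1 and 8, and none of these Mir124a genes was measured. The 10 markers summed to 88898 CPM in replicate 1 and 75909 CPM in the other library. Mir132 alone gave 60392 and 37793 CPM of these sums, and the median log2 ratio of the 7 measured neuron markers was 0.11, opposite in sign to the change of the sum. In replicates 1 and 2, markers of astrocytes summed to 20653 and 31089 CPM, of oligodendrocytes to 2726 and 3556 CPM, and of microglia and leukocytes to 2306 and 2493 CPM. The 3 endothelial and mural markers summed to 16755 and 28009 CPM, of which Mir126a gave 10782 and 22504 CPM. The other markers of that list had lower levels in replicate 2, at 5660 and 5238 CPM for Mir143 and 312 and 268 CPM for Mir145a, and the list's median log2 ratio was −0.11. The 8 listed markers of liver, heart and skeletal muscle summed to 77.0 and 88.4 CPM, and Mir1a-1, Mir133a-1 and Mir133a-2 of that list were at 0. The measured genes of the list were Mir122 (54.0 and 57.6 CPM), Mir206 (13.4 and 22.3 CPM) and Mir208a (7.12 and 3.60 CPM). The liver marker Mir122 was thus above the members Mir449a and Mir34b in both libraries. Reads with several matches were not assigned to genes, so a low count or a 0 in these lists need not mean a low level.

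Mir34a, the single-gene locus of the family and its p53-responsive member of broadest expression, had 3806 counts in replicate 1 and 7801 in replicate 2. These are levels of 1594 CPM (95% exact Clopper-Pearson interval 1543 to 1645) and 1754 CPM (1715 to 1793), with a mean of 1674 ± 114 CPM. It ranked 79th and 83rd among all genes by level. Mir34a was by far the most abundant member in both libraries, and the intervals of the 2 libraries did not overlap.

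Mir34c, the downstream gene of the chromosome 9 pair, had 746 and 1012 counts. Its level was 312 CPM in replicate 1 (290.3 to 336) and 228 CPM in replicate 2 (214 to 242), with a mean of 269.95 ± 59.96 CPM and ranks 157 and 173. Mir34c stood second in both libraries, and it was the only measured member with a lower level in replicate 2.

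Mir34b, its upstream neighbour, had 24 and 57 counts, or 10.05 CPM (6.44 to 15.0) and 12.8 CPM (9.71 to 16.6). The mean was 11.4 ± 1.96 CPM, at ranks 322 and 314. Mir34b was the lowest of the measured members, and its intervals overlapped between the libraries.

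Mir449a, the last gene of the chromosome 13 cluster, had 91 and 192 counts. Its level was 38.1 CPM in replicate 1 (30.7 to 46.8) and 43.2 CPM in replicate 2 (37.3 to 49.7), with a mean of 40.6 ± 3.59 CPM and ranks 247 and 245. In bulk tissue, fewer cells of a type and less RNA per cell cannot be told apart.

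Mir449b and Mir449c had 0 counts in both libraries. A count of 0 allows up to 3 counts, or 1.26 CPM in replicate 1 and 0.675 CPM in replicate 2. Against that limit per library, Mir449a was at least 30.3-fold higher in replicate 1 and at least 64.0-fold higher in replicate 2.

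**Figure D1:**
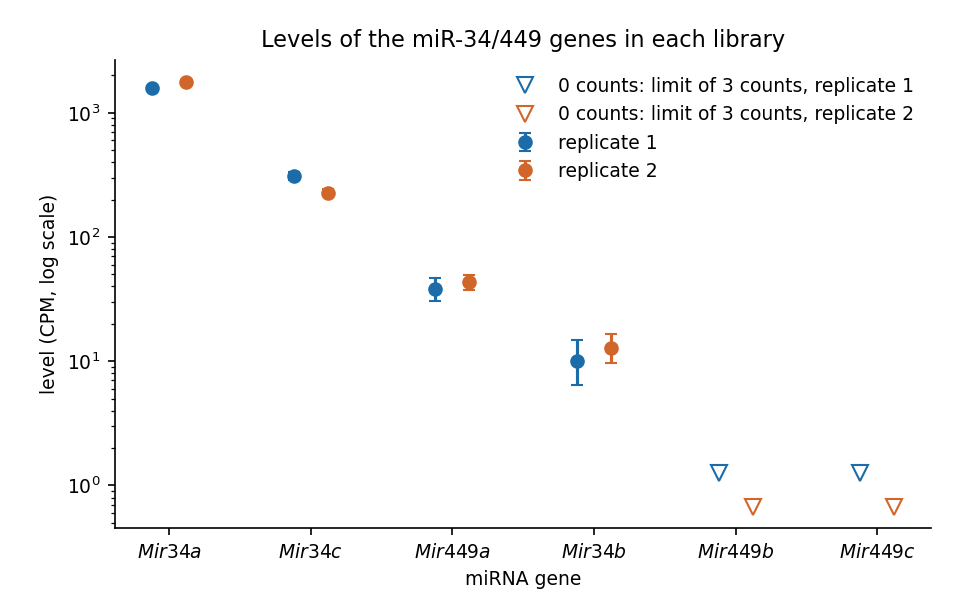
Level of each of the 6 genes in CPM (log axis) in replicate 1 (blue) and replicate 2 (orange). Filled points are measured levels with their 95% exact counting intervals, and open triangles mark the limit of 3 counts for genes with 0 counts. Mir34a (1594 and 1754 CPM) stands highest, followed by Mir34c, Mir449a and Mir34b, with Mir449b and Mir449c at 0.

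The order Mir34a, Mir34c, Mir449a, Mir34b was the same in both libraries, and neighbours in it differed beyond counting error in each. Mir34a exceeded Mir34c by 5.10 times in replicate 1 (exact interval 4.72 to 5.53) and 7.71 times in replicate 2 (7.22 to 8.24). Mir34c exceeded Mir449a by 8.20 times (6.59 to 10.3) and 5.27 times (4.51 to 6.18). Mir449a exceeded Mir34b by 3.79 times (2.40 to 6.22) and 3.37 times (2.49 to 4.61).

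These comparisons hold per length too, although a miRNA read covers the whole mature product whatever the length of the hairpin. Per 100 bases of annotated gene, Mir34a was at 1562 and 1720 CPM, Mir34c at 406 and 296 CPM, Mir449a at 41.9 and 47.4 CPM, and Mir34b at 12.0 and 15.3 CPM. The order was unchanged on that scale.

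**Figure D2:**
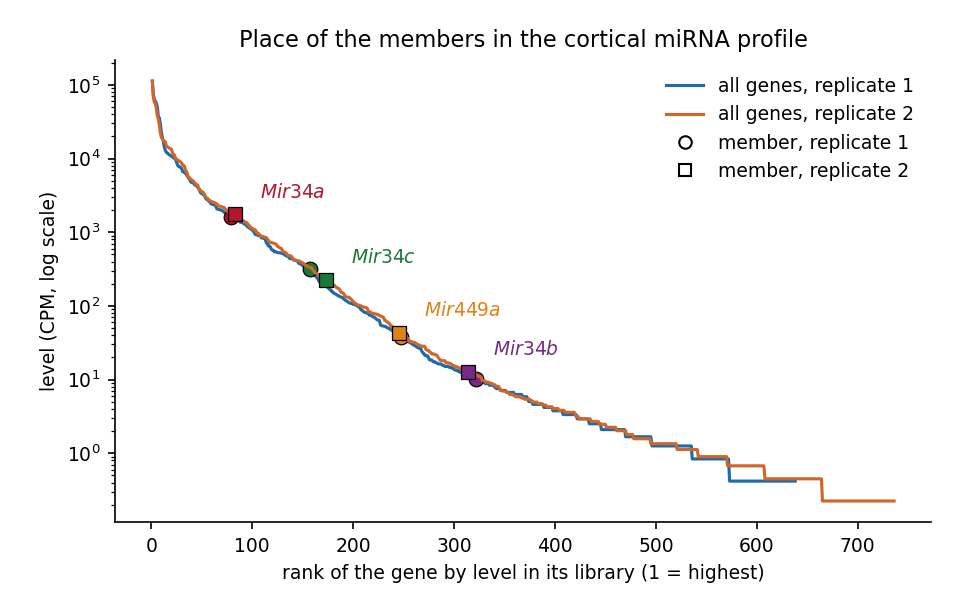
Level in CPM (log axis) of every gene with a count against its rank in its library, with replicate 1 in blue and replicate 2 in orange. Circles (replicate 1) and squares (replicate 2) mark the 4 measured members, which lie from rank 79 (Mir34a, replicate 1) to rank 322 (Mir34b, replicate 1).

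Neighbouring genes of 1 cluster had very unequal levels. Mir34c had 31.1 times the counts of Mir34b in replicate 1 (20.7 to 48.8) and 17.8 times in replicate 2 (13.6 to 23.6). In the chromosome 13 cluster all counts fell on Mir449a, while Mir449b, which ends 35 bases before it, had none. Without a matched hairpin, Mir449b was outside the search for runs shared with other transcripts. Reads with several matches were not assigned, and a loss of Mir449b reads in that way was not tested. The predicted folding energy of the matched hairpins did not follow the order of their levels. Mir449b had no matched hairpin, and a part of folding energy in the levels was not tested. The minimum free energy from RNAfold was −41.8 kcal/mol per 100 bases for Mir34a, −39.4 for Mir34b, −38.7 for Mir34c, −48.9 for Mir449a and −38.3 for Mir449c. The median over all 1005 hairpins of the table was −40.6, and the quartiles were −46.5 and −34.2.

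**Figure D3:**
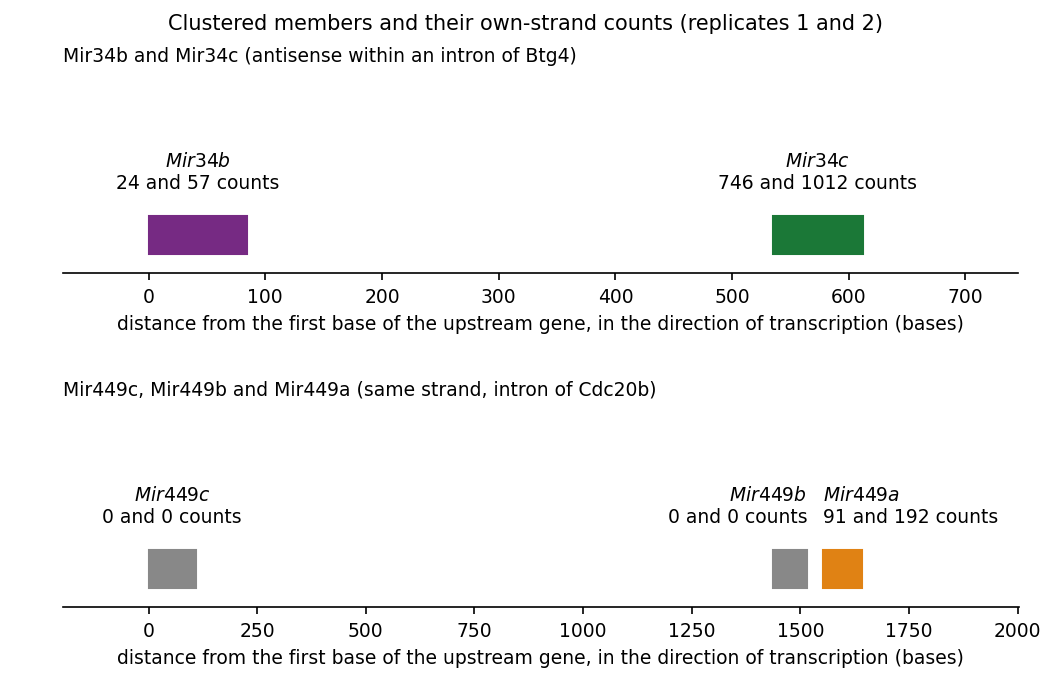
Position of the clustered genes as distance in bases from the first base of the upstream gene, in the direction of transcription, with own-strand counts of replicates 1 and 2 above each. Mir34b and Mir34c are separated by 451 bases, and Mir449b (0 counts) lies 35 bases before Mir449a (91 and 192 counts).

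Together the 6 genes held 4667 of the counts in replicate 1 and 9062 in replicate 2. That is 0.195% of all own-strand counts (exact Clopper-Pearson interval 0.190 to 0.201%) and 0.204% (0.19959 to 0.20799%), a mean of 0.1996% ± 0.0059. Mir34a supplied 81.6% of the family's counts in replicate 1 (80.4 to 82.7%) and 86.1% in replicate 2 (85.4 to 86.8%). The chromosome 9 pair supplied 16.5% and 11.8%, and Mir449a 1.95% and 2.12%. Mir34a's share was 4.53 percentage points higher in replicate 2 (Fisher's exact test, two-sided, p = 5.71e-12), a test that covers counting error only.

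Between the libraries, 2 of the 4 measured members passed the exact conditional binomial test, which compares these libraries and not conditions. Of all 392 measured genes 223 passed (56.9%), with 34.2% higher and 22.7% lower in replicate 2, so a share of 2 in 4 is near that background. Mir34c was lower in replicate 2, at 0.729 of its level in replicate 1 (interval 0.662 to 0.802). Its log2 ratio was −0.46 with a counting SE of 0.070 and an adjusted p of 2.67e-10 in the exact binomial test. Mir34a was higher in replicate 2 by 1.10-fold (1.06 to 1.14), a log2 ratio of 0.14 with a counting SE of 0.029 (exact binomial test, adjusted p = 2.95e-06). With TMM scaling the log2 ratio of Mir34a was 0.08 (adjusted p = 0.0150, exact binomial test).

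The 2 less abundant members did not pass. Mir449a had a log2 ratio of 0.18 (interval −0.19 to 0.56, exact binomial test, adjusted p = 0.459). Mir34b had a log2 ratio of 0.35 (−0.36 to 1.10, adjusted p = 0.460 in the same exact test). At 24 to 192 counts these intervals leave room for differences of the size seen in Mir34c in the upward direction.

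The members' differences were of a size common in this pair of libraries. The median log2 ratio was 0.16 over the 4 measured members and 0.06 over all 392 measured genes. The absolute log2 ratio was smaller than that of Mir34c in 64.0% of measured genes, and smaller than that of Mir34a in 24.5%.

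In edgeR's exact test with the common dispersion (a biological coefficient of variation of 0.311), 3 of the 392 genes passed (0.765%) and 0 of the 4 members did. Unadjusted p-values of the members in that exact test ranged from 0.481 (Mir34c) to 0.830 (Mir34a), so 0 were under 0.05. That dispersion was estimated from the same 2 libraries that were then set against each other, so few calls follow from its construction, and the test says nothing about the size or stability of the members' differences.

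**Figure D4:**
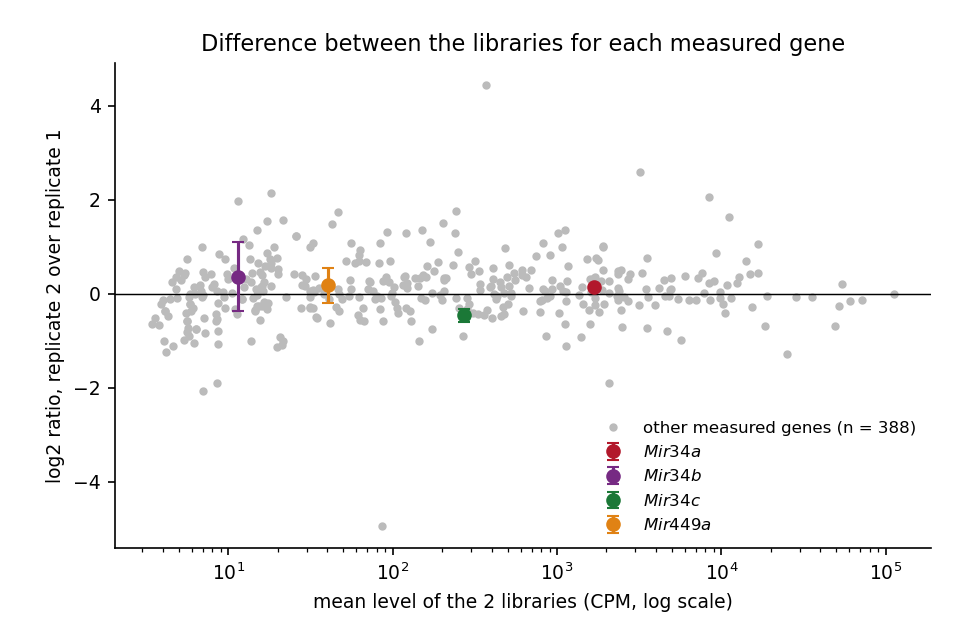
Log2 ratio of replicate 2 over replicate 1 against the mean level in CPM (log axis) for the 392 measured genes. Grey points are the 388 other genes, and coloured points are the members with 95% exact counting intervals. Mir34c (−0.46) lies below 0 and Mir34a (0.14) just above it, while the intervals of Mir449a and Mir34b include 0.

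Ratios between members, which do not depend on library totals, were compared in 6 pairs. The ratio of Mir34a to Mir34c differed between the libraries (Fisher's exact test, adjusted over the 6 pairs, p = 3.10e-14), and so did that of Mir34c to Mir449a (8.20 and 5.27, adjusted p = 0.00333, Fisher's exact test). Mir34c over Mir34b, at 31.1 and 17.8, had p = 0.0280 in Fisher's exact test and 0.0561 after adjustment, and did not pass. With both strands counted together its adjusted p was 0.0329. The 3 pairs among Mir34a, Mir34b and Mir449a did not pass (adjusted p = 0.848 for each, Fisher's exact test), and Mir34a over Mir449a was 41.8 in replicate 1 and 40.6 in replicate 2. The pairs that passed were thus 2 of the 3 that hold Mir34c.

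Other miRNAs known to respond to p53 gave no common direction. Of the 13 listed besides the members, 12 were matched by name, 11 had a count and 9 were measured. Of these 9, 4 were higher and 4 lower in replicate 2 past the exact binomial test. Over all 392 measured genes, 34.2% were higher and 22.7% lower. Their median log2 ratio was 0.26, against 0.06 over all measured genes. The most abundant were Mir149 (8994 ± 1157 CPM, log2 ratio 0.26), Mir143, a smooth-muscle miRNA (5449 ± 299 CPM, −0.11), Mir107 (3515 ± 1214 CPM, −0.72) and Mir15a (1013 ± 606 CPM, 1.30). All 4 passed. Mir34a thus stood above Mir15a and below the other 3 in mean level. Mir605 was not analysed here, and Mir215 had 0 counts.

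Markers of choroid plexus and of epithelia were read because miR-34b, miR-34c and miR-449 are known from such cells. Mir204, a choroid plexus miRNA also found elsewhere in brain, had levels of 507 and 718 CPM in replicates 1 and 2 and passed the exact binomial test (log2 ratio 0.50, adjusted p = 2.09e-25). It was above Mir34c in both libraries. Mir211, its relative and the only other gene of that list, had 6 and 38 counts and so was not measured. The 7 epithelial markers all had counts, and their levels summed to 216 and 231 CPM in replicates 1 and 2. Of the 6 measured, 2 were higher in replicate 2, 2 were lower and 2 did not pass, against 34.2% higher and 22.7% lower over all measured genes. Mir203 (67.2 ± 18.7 CPM) and Mir200c (21.6 ± 10.3 CPM) were lower. Mir200b (46.3 ± 35.3 CPM) was higher, and Mir429 (62.6 ± 2.05 CPM) did not pass. In mean level, Mir34c, at 269.95 CPM, was above each of these 4, and Mir449a was between Mir200b and Mir200c. In replicate 1, though, Mir449a (38.1 CPM) was above both Mir200b (21.4 CPM) and Mir200c (28.9 CPM). Mir34c was lower in replicate 2 while Mir204 was higher, and the part of such cells in the differences was not tested.

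The genes closest to each member in level were found by the distance of log2(CPM + 1) over the 2 libraries, which is a likeness of level in 1 tissue only. For Mir34a these were Mir874 (1600.2 ± 26.5 CPM), Mir431 (1677 ± 259.6 CPM) and Mir671 (1684 ± 276 CPM), at distances of 0.116 to 0.139. For Mir34c they were Mir873a (281 ± 44.5 CPM), Mir30c-2 (252 ± 36.2 CPM) and the smooth-muscle miRNA Mir145a (290.1 ± 31.5 CPM), each also with a lower level in replicate 2. For Mir449a they were Mir3093 (38.05 CPM), Mir503 (40.7 CPM) and Mir7044 (35.5 CPM). For Mir34b they were the myeloid miRNA Mir223 (10.8 CPM), the heart and muscle miRNA Mir499 (12.4 CPM) and Mir758 (12.7 CPM). The distance uses both libraries, so a like difference between them is part of the choice.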

How the data were processed

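Small RNA of cortex from 2 mice was sequenced, 1 library each. The authors deposited raw read counts per miRNA gene, made on mm10 with GENCODE M21, per the readme files. An aligner or counting tool is not given in the sources used here. Of the 3 unlabelled columns, the values fit both strands, own strand and opposite strand, in that order. Own-strand counts were used, as CPM of their total. Reads that name no gene stayed out of totals: unmapped reads (31.6% and 18.2% of all reads in replicates 1 and 2) and, of mapped reads, those with several matches (48.6% and 52.8%) or in no feature (7.36% and 6.91%). The reference is C57BL/6J, and mismatch of CAST/EiJ reads was not tested.

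A two-sided exact binomial test, conditional on library totals, was run on genes with 10 or more counts in both libraries, with Benjamini-Hochberg adjustment over all of them at 0.05. With 1 group edgeR's quasi-likelihood test has no contrast. The binomial test was checked on simulated data with known changes. Ratios between members were compared by Fisher's exact test. Intervals are exact (Clopper-Pearson) at 95%. Alternatives were TMM (edgeR 4.0.16, R 4.3.3) and DESeq2 1.42.0 scaling, edgeR's exact test with the common dispersion, a count minimum of 1 or 100, both strands, all mapped reads as the denominator, and a total lacking the most abundant gene. SciPy 1.17.1, Biopython 1.88, RNAfold 2.7.2 and matplotlib 3.10.9 were used under Python 3.11.15. Members and lists were chosen with earlier results of these data known. Named genes are the members, up to 4 measured genes of each list by mean CPM, and the 3 genes nearest each measured member in log2(CPM + 1). Mir211, Mir215, Mir605, the Mir124a genes and the markers at 0 were named after their values were seen.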

Additional observations from a re-analysis of the deposited data

Results flagged for a closer look

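Reads on the strand opposite to Mir34b came to 7 counts in replicate 2, above the 3 counts that a count of 0 allows, and to 3 counts in replicate 1. Above, they entered only the Mir34c to Mir34b ratio with both strands counted together. They were 10.9% and 11.1% of the reads on both strands of this gene. Mir34b was the only 1 of the 6 members with such counts, and over all genes 88 of 2202 had them in either library. The annotation has no miRNA gene on that strand at this place, while Btg4 runs on it. The origin of these reads was not tested.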

How the results depend on the processing

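Levels depended on the denominator. With all mapped reads as the denominator, mean levels were 705 per 1000000 reads for Mir34a, 115 for Mir34c, 17.1 for Mir449a and 4.80 for Mir34b, and the family held 0.0841% of reads. With both strands together, Mir34a was at 1816 CPM, Mir34c at 292 CPM, Mir449a at 44.1 CPM and Mir34b at 13.9 CPM, and the family share was 0.217%. The total of both strands is smaller, and Mir34b also gained its opposite-strand counts, 3 in replicate 1 and 7 in replicate 2. The log2 difference in the Mir34c to Mir34b ratio was then −0.81 and passed (Fisher's exact test, adjusted p = 0.0329). With edgeR's exact test and the common dispersion, Mir34a (0.14) and Mir34c (−0.46) no longer passed (adjusted p = 1 for each), 3 genes in all passed in place of 223, and 0 members in place of 2. That dispersion comes from the pair of libraries being compared, with 1 library on each side, so the loss of calls is built into the test and says nothing about stability. With TMM or DESeq2 scaling, count minimums of 1 and 100, and totals without the most abundant gene, the measured members kept their direction and their side of the threshold, except that Mir34b and Mir449a had too few counts for a minimum of 100 and got no value there. Leaving out a library leaves the level of the other, so Mir34a ranged from 1594 to 1754 CPM and Mir34c from 228 to 312 CPM, and the comparison of libraries then has no value. No paired analysis was possible because there is 1 group. Of the measured members Mir34b had the fewest counts (24 and 57), and for Mir449b and Mir449c depth gives an upper limit only.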
